A study of Rattus norvegicus with 6 samples.

Results

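The proteasome genes of rat flat pluripotent stem (fPS) cells were compared with those of rat embryonic stem (ES) cells. Members were the genes with an Affymetrix probe set that the platform's annotation gives to a single symbol beginning with Psm, a letter from a to g and a digit, leaving out Psmb8 and Psmb9. The rule found 44 genes among 14217 measured, with 58 probe sets, and where a gene had several, the one of highest average signal on the 6 arrays stood for it. Of the 44 genes, 14 encode subunits of the core particle, 17 encode subunits of the regulatory particle, 11 encode assembly chaperones, activators or an inhibitor, and 2 (Psmc3ip and Psme3ip1) match the rule by spelling only, since they are named for proteins that bind a proteasome component. Psmb6 and Psme3, whose probe sets carry several symbols, were not analysed here. Psma3 has a near-identical copy, Psma3l, that shares another probe set with it, so its values are uncertain.

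The samples were 3 of fPS cells and 3 of ES cells, all from Sprague-Dawley rats, with 1 array of biotin-labelled cRNA for each. Titles and cell type give the groups, while the description of the fPS samples names embryonic stem cells. Both groups share 1 protocol: medium with human LIF, the GSK3 inhibitor CHIR99021 and the MEK inhibitor PD0325901, feeders of mouse embryonic fibroblasts treated with mitomycin C, and removal of the cells by hand. The labels name neither the number of lines behind a group nor whether its 3 samples were grown apart. The p-values therefore reflect the variation among these 6 samples alone, part or all of which may be technical.

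The proteasome degrades proteins that carry ubiquitin chains. Its core particle is a barrel of stacked rings, in which the outer rings of Psma subunits gate the entrance and the inner rings of Psmb subunits hold the proteolytic sites. The regulatory particle caps the barrel: a ring of Psmc ATPases unfolds substrates and opens the gate, and Psmd subunits bind ubiquitin, hold the particle together and remove the chains. Pluripotent stem cells are known for high proteasome activity.

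Most proteasome genes were somewhat lower in fPS than in ES cells, and no gene passed the test. Of 44 members, 39 had a negative log2 difference (fPS minus ES), where 50% of all genes had. The median was -0.19 for the core particle (range -0.37 to 0.16), -0.36 for the regulatory particle (range -0.66 to 0.06) and 0.002 for all other genes. Differences are on the scale of log2(intensity + 16). By limma, with p-values adjusted over the whole array (Benjamini-Hochberg), 0 of 44 members passed an adjusted p of 0.05, where 0.858% of all genes passed (0.57% higher and 0.288% lower in fPS cells). At an unadjusted p under 0.05 the same fit gave 5 lower members, a share of 11.4% where 8.88% of all genes were lower, and 1 higher member, a share of 2.27% where 8.59% were higher. All 3 fPS arrays lay below all 3 ES arrays for 13 members (29.5%, against 11.3% of all genes), and above them for 1 (2.27%, against 11.3%).

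**Figure D1:**
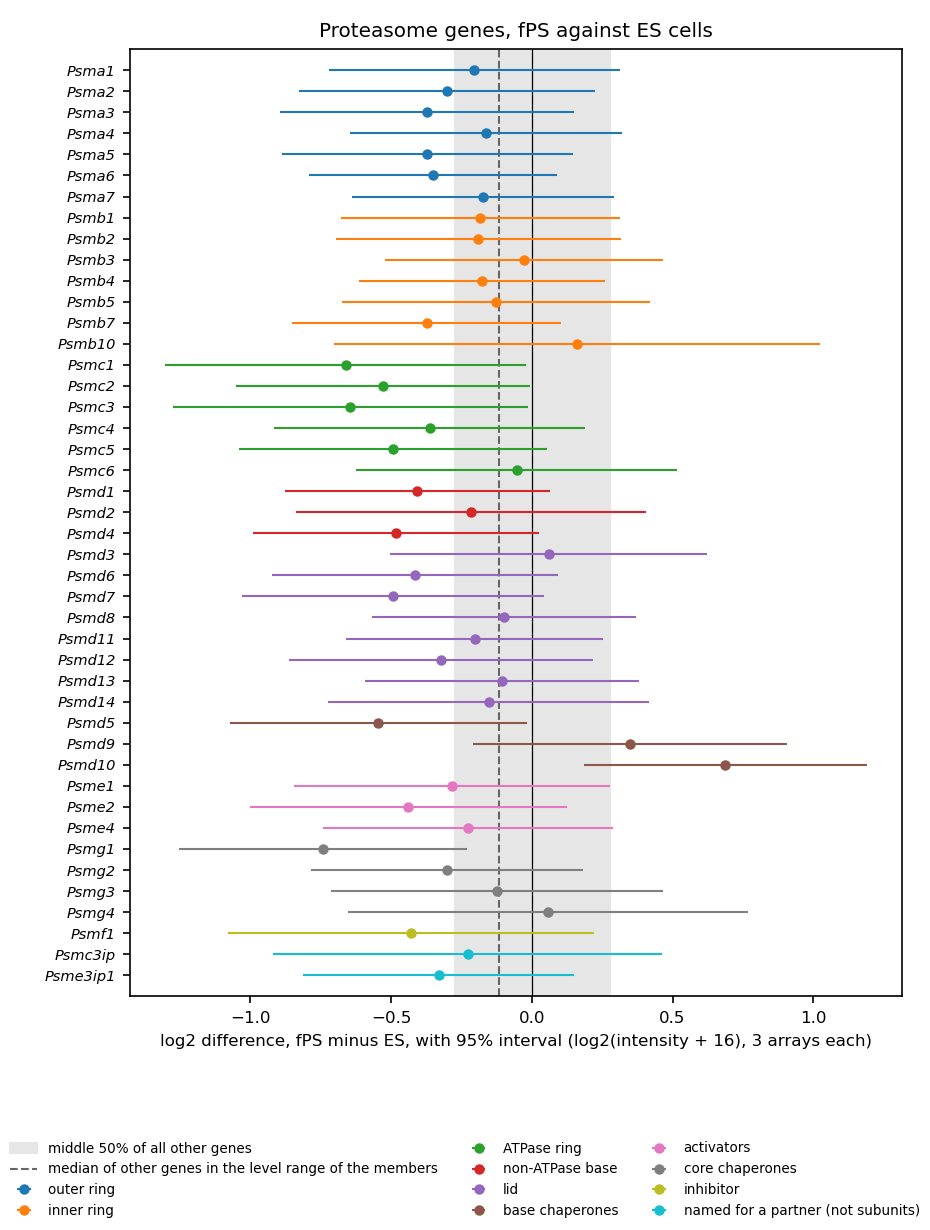
Log2 differences (fPS minus ES, log2(intensity + 16)) of the 44 members as points, coloured by role, with 95% intervals from limma over 3 fPS and 3 ES arrays. Most points lie left of 0, Psmg1 and Psmd10 stand furthest out on either side, and most intervals include 0.

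The members are read by bright probe sets. All 44 members had a mean intensity of 347 or more, while the median over all other genes was 90.8. Among the 3467 other genes in the members' range of mean level, the median log2 difference was -0.12, 62.8% were negative and 17.7% had all fPS arrays below all ES arrays. At an unadjusted limma p under 0.05, 12.3% of those genes were lower and 6.17% higher in fPS cells. The core median (-0.19) and the regulatory median (-0.36) both lay below that of genes in the same range. Levels within the range were not matched. Mean intensity had a median of 3890 for the core and 1533 for the regulatory particle, against 785 for those other genes. Whether equally bright genes lay as low as the members was not tested. The median log2 difference of the other genes depended on the setting: it was 0.01 after quantile normalization, -0.01 with a common trimmed mean, -0.03 without fPS replicate 3, -0.05 without ES replicate 3 and 0.05 with both of these arrays left out.

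The fPS arrays differed among themselves. The lowest of them, fPS replicate 3, was the lowest of the 6 for 36 of 44 members (81.8%), against 29.4% of all other genes and 44.6% of those in the same range of level. The median deviation of core genes from their ES mean was -0.005, -0.13 and -0.45 (log2) on fPS replicates 1, 2 and 3, and 0.09, 0.02 and -0.10 on ES replicates 1, 2 and 3. For regulatory genes it was -0.13, -0.35 and -0.64 on the fPS arrays and 0.03, -0.12 and 0.07 on the ES arrays. The first fPS array lay within the range of the ES arrays for the core and just below it for the regulatory particle. fPS replicates 2 and 3 lay below every ES array for both, though fPS replicate 2 only just so for the core. Less the median of all other genes on the same array, the regulatory medians were -0.22, -0.35 and -0.54 on the fPS arrays and 0.05, -0.07 and 0.004 on the ES arrays, without overlap. The core medians were -0.09, -0.13 and -0.35 on the fPS arrays and 0.11, 0.07 and -0.17 on the ES arrays, with overlap. Most of those other genes were dimmer. Other genes in the members' range of level deviated by 0.01, -0.06 and -0.28 on the fPS arrays and -0.05, -0.12 and 0.21 on the ES arrays. Both particles lay below these genes on every fPS array, but on ES replicate 3 as well. fPS replicate 3 also had the lowest mean intensity over all probe sets after trimming 2% at each end (145, against 177 and 165 on the other fPS arrays and 167, 160 and 199 on the ES arrays). Without fPS replicate 3 the median was -0.07 for the core and -0.18 for the regulatory particle, and 34 of 44 members (77.3%) were negative, where 44.7% of all genes were. The median of all other genes was then 0.05, so that the core lay at -0.12 and the regulatory particle at -0.23 relative to it, against -0.19 and -0.36 with all arrays. Other genes in the members' range of level then had a median of -0.03, nearer to that of the core, against -0.12 with all arrays. Without fPS replicate 1 the core median was -0.29, and without ES replicate 3 it was -0.28.

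**Figure D2:**
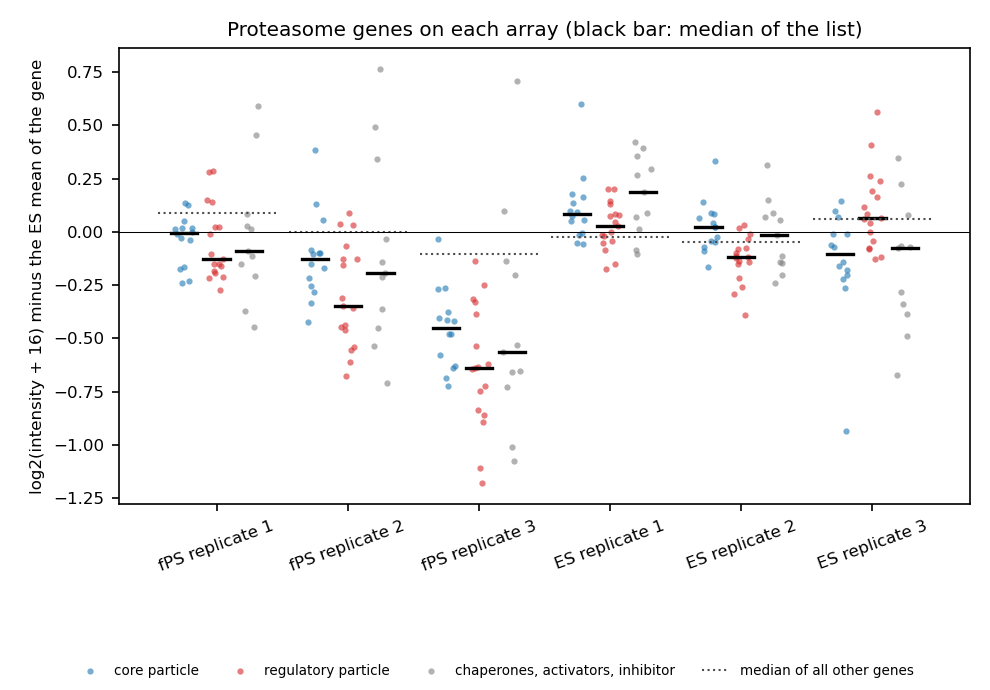
Each point is a member on an array, as log2(intensity + 16) minus its mean over the ES arrays, with black bars at the median of each list and dotted lines at the median of all other genes. On fPS replicate 3 the medians of the core (-0.45) and regulatory (-0.64) genes lie below the dotted line (-0.10), and on fPS replicate 1 the core median (-0.005) is near the ES level.

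Some other measures set fPS replicate 3 apart and some did not. The summed intensity of 9 measured of 12 listed pluripotency markers was 19543, 17501 and 14365 on the fPS arrays and 17980, 16794 and 22246 on the ES arrays, lowest on fPS replicate 3. Marker sums were not scaled for the signal of the whole array. That signal, as a trimmed mean, was also lowest on fPS replicate 3 (145) and highest on ES replicate 3 (199). The pluripotency markers did not go 1 way. The log2 difference was negative for Sox2 (-0.97), Esrrb (-0.29), Klf4 (-0.27), Sall4 (-0.15) and Klf2 (-0.12) and positive for Fgf4 (0.35), Klf5 (0.32), Tfcp2l1 (0.05) and Epcam (0.03), and none passed an adjusted p of 0.05 by limma. Sox2, a core factor of pluripotent cells and the marker with the largest difference, had 2838, 1856 and 1281 in fPS and 3427, 3266 and 4618 in ES cells. The summed intensity of 16 fibroblast markers, all measured and none at 0, ran from 3620 to 4593 on the fPS arrays and from 2513 to 4082 on the ES arrays, highest on fPS replicate 3. Single markers differed: Sparc was highest on fPS replicate 3 (1181, against 706 on ES replicate 3), Col1a1, Col1a2, Col3a1 and Col5a2 were highest on ES replicate 3 (251, 712, 323 and 765) and next on fPS replicate 3 (200, 541, 178 and 487), and Timp1 had 2080, 2358 and 1404 in fPS and 2106, 1722 and 590 in ES cells. Without Timp1 the sum would be highest on ES replicate 3. The ratio of 3' to 5' β-actin signal, a measure of RNA integrity, was 2.60, 4.37 and 2.35 in fPS and 2.63, 2.69 and 2.06 in ES samples, highest on fPS replicate 2. The same ratio for Gapdh was 1.01, 0.956 and 0.973 in fPS and 1.01, 1.01 and 0.971 in ES samples. Neither ratio set fPS replicate 3 apart. The part of these measures in the proteasome values was not tested. In bulk RNA, fewer cells of a type and less RNA per cell cannot be told apart.

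All 7 genes of the outer ring of the core had lower means in fPS cells, and none passed. The log2 differences ran from -0.37 to -0.16, with a median of -0.30. Psma6 had 4957, 4636 and 4195 in fPS and 5837, 6118 and 5610 in ES cells, and its groups did not overlap. Its log2 difference was -0.35 (SE 0.194, adjusted p = 0.445 by limma). Psma5 also had no overlap, with 4593, 4454 and 3129 in fPS and 4990, 4864 and 5728 in ES cells. Psma3, which had the largest difference of the ring, lay at 829, 620 and 514 in fPS and 870, 809 and 830 in ES cells, a log2 difference of -0.37 (SE 0.230). Here the first fPS array fell within the ES range and the other two lay below it. Psma4 had the smallest, with 2725, 2501 and 2032 in fPS and 2875, 2397 and 2824 in ES cells (log2 difference -0.16, 95% interval -0.65 to 0.32). The groups of Psma1, Psma2 and Psma7 overlapped, with -0.20, -0.30 and -0.17. Without fPS replicate 3 the log2 difference was -0.22 for Psma3 and -0.04 for Psma4, and without fPS replicate 1 it was -0.25 for Psma4.

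In the inner ring 6 of 7 genes were negative, with a median of -0.18, and none passed. Psmb7, the subunit with trypsin-like activity, had 3083, 3034 and 2313 in fPS and 3865, 3551 and 3443 in ES cells. All fPS values lay below all ES values, with a log2 difference of -0.37 (SE 0.210, adjusted p = 0.454 by limma), or -0.24 without fPS replicate 3. Psmb5, the subunit with chymotrypsin-like activity and the main target of proteasome inhibitor drugs, had 4086, 4566 and 2989 in fPS and 4719, 4428 and 3480 in ES cells, a log2 difference of -0.13 (95% interval -0.68 to 0.42) with overlapping groups. Of the subunits without a proteolytic site, Psmb4 did not overlap (7680, 8040 and 7156 in fPS, against 8291, 8369 and 9241 in ES cells; log2 difference -0.18), and Psmb1, Psmb2 and Psmb3 overlapped, with -0.18, -0.19 and -0.03. Psmb10, the form of the trypsin-like subunit that interferon induces in immune tissue, was the only core gene with a positive difference. It had 342, 409 and 303 in fPS and 479, 395 and 155 in ES cells, so ES replicate 3 was far below the other arrays. The log2 difference was 0.16 (SE 0.380), and without that array it was -0.30.

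The ATPase ring of the regulatory particle had the lowest median of the particle's parts, -0.51 over 6 genes, all negative. Psmc1, which opens the gate of the core, had 1540, 1049 and 736 in fPS and 1791, 1516 and 1766 in ES cells. The first fPS array lay within the ES range and the other two far below it (log2 difference -0.66, SE 0.282, unadjusted p = 0.0446 and adjusted p = 0.308 by limma). Psmc3, another ATPase whose tail docks in the core, had 1985, 1503 and 1060 in fPS and 2347, 1883 and 2770 in ES cells, a log2 difference of -0.64 (SE 0.278), again with only the first fPS array inside the ES range. Psmc2 had 3264, 2605 and 2119 in fPS and 3675, 3489 and 4253 in ES cells, without overlap (log2 difference -0.53, SE 0.230). Psmc5 likewise had no overlap (-0.49), while Psmc4 did (-0.36). Psmc6 had 1754, 1529 and 986 in fPS and 1420, 1455 and 1434 in ES cells, so 2 of 3 fPS arrays were above every ES array and the log2 difference was -0.05 (SE 0.251). Its 2 further probe sets, of lower signal, gave -0.21 and -0.63. None of the ATPase genes had an unadjusted limma p under 0.05 when fPS replicate 2, fPS replicate 3, ES replicate 1 or ES replicate 3 was left out. Without fPS replicate 3 the log2 difference was -0.40 for Psmc1, -0.41 for Psmc3, -0.38 for Psmc2 and 0.19 for Psmc6.

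The scaffold and ubiquitin receptor subunits of the base were also lower without passing. Psmd4, a ubiquitin receptor, had 1600, 1205 and 1053 in fPS and 1777, 1678 and 1884 in ES cells, without overlap (log2 difference -0.48, SE 0.223, adjusted p = 0.349 by limma). Psmd1, the larger scaffold, did not overlap either (-0.41). Psmd2, the scaffold that docks shuttle proteins, had 1898, 1987 and 1725 in fPS and 1922, 1651 and 3216 in ES cells. ES replicate 3 was far above the other arrays. The log2 difference was -0.21 (SE 0.273), and without that array it was 0.07.

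Of 8 lid genes 7 were negative, with a median of -0.18. Psmd7, the partner of the deubiquitinase Psmd14, had 1517, 1229 and 929 in fPS and 1795, 1537 and 1770 in ES cells, without overlap (log2 difference -0.49, SE 0.236, adjusted p = 0.369 by limma), and without fPS replicate 3 its log2 difference was -0.31. Psmd14 itself, which cuts ubiquitin chains off substrates, had 2818, 2625 and 1633 in fPS and 2636, 2616 and 2417 in ES cells, a log2 difference of -0.15 with overlap. Its 2 further probe sets gave -0.45 and -0.82. Psmd11, a scaffold of the lid that in worms and human ES cells is tied to proteasome assembly, had 3455, 3397 and 2839 in fPS and 3496, 3627 and 4023 in ES cells. These groups did not overlap, yet the first fPS array was only just below the lowest ES array (log2 difference -0.20, SE 0.200, or -0.11 without fPS replicate 3). Psmd3 was the only lid gene above 0 (578, 483 and 427 in fPS, against 424, 392 and 631 in ES cells; log2 difference 0.06), and its groups overlapped. Psmd6, Psmd8, Psmd12 and Psmd13 overlapped as well, with log2 differences of -0.42, -0.10, -0.32 and -0.11.

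By the probe set that stood for each gene, the assembly chaperones held the largest differences in both directions. Psmg1, which pairs with Psmg2 to build the outer ring of the core, had 997, 828 and 640 in fPS and 1378, 1420 and 1296 in ES cells. Every fPS value lay well below every ES value, and fPS cells had 60.2% of the ES mean (821 ± 179 in fPS and 1365 ± 63.4 in ES cells, SD over 3 arrays each). The log2 difference was -0.74 (SE 0.225, 95% interval -1.25 to -0.23, unadjusted p = 0.00960 and adjusted p = 0.166 by limma). Its partner Psmg2 had 839, 813 and 625 in fPS and 979, 840 and 985 in ES cells, with no overlap but hardly a gap between the nearest arrays (log2 difference -0.30). The other pair of core chaperones overlapped. Psmg3 had a log2 difference of -0.12. Psmg4 had 1797, 2243 and 1531 in fPS and 2261, 2197 and 1103 in ES cells, a log2 difference of 0.06. ES replicate 3 was the lowest array for both, and without it Psmg4 was at -0.28.

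Psmd10 was the highest of all members in fPS relative to ES cells. It encodes gankyrin, a chaperone of the ATPase ring that in human cells also binds RB1 and MDM2 and is known as an oncoprotein of the liver. Its intensity was 970, 1097 and 1055 in fPS and 729, 711 and 503 in ES cells. All fPS values were above all ES values, and the mean was 1041 ± 64.4 in fPS and 648 ± 126 in ES cells (SD over 3 arrays each), or 161% of ES. The log2 difference was 0.69 (SE 0.221, 95% interval 0.18 to 1.19, unadjusted p = 0.0130 and adjusted p = 0.185 by limma). fPS replicate 3, lowest for most members, was not low for this gene. Psmd9, another chaperone of the base, had 1145, 1176 and 892 in fPS and 1022, 886 and 634 in ES cells, a log2 difference of 0.35 (SE 0.246) with overlap. The remaining chaperone of the base, Psmd5, went the other way, with 1021, 911 and 795 in fPS and 1232, 1121 and 1691 in ES cells, no overlap and a log2 difference of -0.55 (SE 0.232, unadjusted p = 0.0444 and adjusted p = 0.308 by limma). That p was not under 0.05 unadjusted when any 1 of fPS replicates 2 or 3 or ES replicates 1 or 3 was left out.

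**Figure D3:**
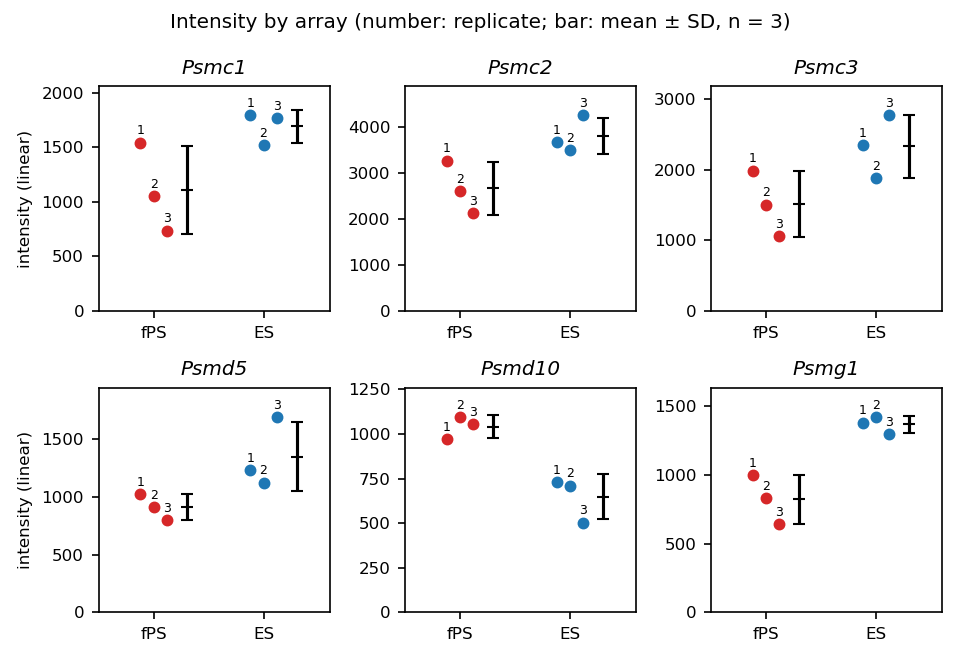
Linear intensity on each array, fPS left and ES right, of the 6 members with an unadjusted limma p under 0.05, with bars at mean ± SD (n = 3). Psmd10 is higher and Psmg1 lower on every fPS array than on any ES array, while for Psmc1 and Psmc3 fPS replicate 1 reaches the ES range.

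Psmg1 and Psmd10 were the members that kept an unadjusted limma p under 0.05 in all 19 settings, counting the analysis as reported and 18 alternatives. The share of all genes that did so is not given here, and the settings reuse the same arrays. In single settings 11.4% to 22.1% of the genes tested had such a p. The lowest and highest p were 0.00354 and 0.0371 for Psmg1 and 0.00422 and 0.0482 for Psmd10. The adjusted p did not fall below 0.05 in any of them and ran from 0.0939 to 0.418 for Psmg1 and from 0.111 to 0.468 for Psmd10. The other 4 members held in 7 to 12 of the 19. The number of members at an unadjusted p under 0.05 was 11 without fPS replicate 1, where 18.5% of all genes had such a p. It was 2 without fPS replicate 2, fPS replicate 3, ES replicate 1 or ES replicate 3, where 11.4%, 14%, 13.3% and 16.8% of all genes had one.

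Activators that replace or join the regulatory particle were lower with overlapping groups. Psme1 and Psme2, which interferon induces and which form an activator of the core together, had log2 differences of -0.28 (SE 0.247) and -0.44 (SE 0.248). Psme1 had 2560, 2189 and 1608 in fPS and 3051, 2205 and 2425 in ES cells, with only the first fPS array inside the ES range. Psme2 had 1938, 1637 and 1415 in fPS and 2952, 2073 and 1843 in ES cells, with the first fPS array above the lowest ES array. Psme2 was highest on ES replicate 1 and lowest on fPS replicate 3. Psme4, an activator that acts in the nucleus and in sperm development, had 523, 553 and 387 in fPS and 534, 514 and 665 in ES cells (log2 difference -0.23). Psmf1, an inhibitor of the core in the test tube, had 670, 487 and 306 in fPS and 672, 625 and 599 in ES cells (log2 difference -0.43, SE 0.286). Its first fPS array was at the level of the ES arrays and fPS replicate 3 at a much lower one. Without fPS replicate 3 the log2 difference was -0.14 for Psmf1, -0.10 for Psme1 and -0.07 for Psme4. Without ES replicate 1 it was -0.24 for Psme2 and -0.15 for Psme1, without fPS replicate 1 it was -0.69 for Psmf1 and -0.43 for Psme1, and without ES replicate 3 it was -0.11 for Psme4. Of the 2 genes that are no subunits, Psmc3ip, a protein of meiotic recombination, had -0.23 and Psme3ip1 had -0.33.

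The subunits of both particles, but not the other members, varied less within ES cells than other genes in the members' range of level. The median SD of log2 values was 0.13 for the 31 subunits on the ES arrays, against 0.29 for the 3467 other genes in that range, and 0.29 also for the 11 chaperones, activators and inhibitor, while for the subunits and those other genes on the fPS arrays it was 0.24 and 0.23. On the fPS arrays the subunits and the other genes had much the same spread. Levels were not matched here. Mean intensity had a median of 2458 for the subunits, 785 for the other genes and 959 for the 11 chaperones, activators and inhibitor. Whether the spread followed the level was not tested. The ES arrays did not all place the particles alike: ES replicate 3 had the lowest core median of the ES arrays (-0.10) and the highest regulatory median (0.07).

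Of 9 members with several probe sets, 3 had probe sets of opposite sign. Each of the disagreeing probe sets had a mean intensity under 100, and the 5 members with several probe sets of 100 or more had no disagreement of sign among those. Sizes did differ. Psmd14 had -0.15 on the probe set used and -0.45 and -0.82 on the others, and Psmc6 had -0.05, against -0.21 and -0.63. By limma the probe sets at -0.82 and -0.63 had an unadjusted p of 0.0202 and 0.0255 (adjusted p = 0.221 and 0.244). For both, all fPS arrays lay below all ES arrays. A dim probe set of Psmd11 went the other way (0.60, unadjusted p = 0.0494). The counts of members rest on the probe set used and leave these out.

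Of 33 other genes listed for the route to the proteasome, 26 were measured, 0 passed an adjusted p of 0.05 in either direction by limma, and an unadjusted p under 0.05 was reached by 3 in the higher and 3 in the lower direction, where 8.59% of all genes were higher and 8.88% lower. Their median log2 difference was -0.06, with 16 of 26 negative. The 3 higher ones were Nub1, which brings NEDD8 and its conjugates to the proteasome, Zfand2a, a stress-induced protein that binds the regulatory particle, and Ubqln4, a shuttle for ubiquitinated proteins. Nub1 had 270, 300 and 302 in fPS and 136, 152 and 170 in ES cells, a log2 difference of 0.87 (SE 0.198, adjusted p = 0.0875 by limma), with a wide gap between the groups. Zfand2a had 248, 167 and 166 in fPS and 120, 89.1 and 108 in ES cells (log2 difference 0.77), and Ubqln4 had 107, 146 and 131 in fPS and 61.2, 67.4 and 78.9 in ES cells (log2 difference 0.76). Neither pair of groups overlapped. The 3 lower ones did not overlap either. Ddi2, the protease that activates the transcription factor Nfe2l1, was dim, with 62.3, 28.4 and 45.9 in fPS and 91.0, 86.0 and 135 in ES cells (log2 difference -0.98). Uba6, a ubiquitin-activating enzyme, had 921, 718 and 458 in fPS and 964, 1090 and 1472 in ES cells (-0.77). Uchl5, a deubiquitinase of the regulatory particle, had 1271, 1172 and 1064 in fPS and 1662, 1519 and 2055 in ES cells (-0.56). As a mean over all probe sets of the gene, the log2 difference was -0.45 for Ddi2 and -0.40 for Uba6. Without replicate 3 of both groups it was -0.83 for Ddi2, -0.33 for Uba6 and -0.38 for Uchl5. Nfe2l1, the factor that restores proteasome gene expression when the proteasome is inhibited, was looked at after its values were seen: it had 415, 643 and 731 in fPS and 483, 505 and 807 in ES cells, a log2 difference of -0.005 (SE 0.293).

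A second list held genes that interferon induces together with Psmb10, Psme1 and Psme2. Of 9 listed, 8 were measured, 0 passed the adjusted p by limma, 2 reached an unadjusted p under 0.05 in the higher and 0 in the lower direction, where 8.59% of all genes were higher and 8.88% lower, and the median log2 difference was 0.35. Psmb9, an inducible core subunit outside the rule, had 690, 575 and 738 in fPS and 321, 443 and 284 in ES cells, with no overlap (log2 difference 0.92, SE 0.235, adjusted p = 0.110 by limma). Tap1, the peptide transporter beside it, was dim, at 29.5, 88.5 and 98.4 in fPS and 3.12, 14.8 and 21.9 in ES cells (log2 difference 1.53, adjusted p = 0.114 by limma). Psmb8 was dim too, at 85.1, 66.3 and 63.4 in fPS and 71.1, 57.8 and 87.5 in ES cells (log2 difference -0.003).

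Proteasome promoters were read for 40 of the 44 members from RefSeq windows of 300 bases (250 before the start and 50 after, GRCr8). Searched on both strands were CCAAT, the NF-Y box, TGANNNNGC, the core of the antioxidant response element bound by Nfe2l1 and Nfe2l2 with small Maf proteins, and CCGGAAG, a site of ETS factors. CCAAT was found in 20 of 40 members (50%, against 37.7% of 27457 windows in all and 37.3% of 11700 windows of genes on the array). TGANNNNGC was in 21 (52.5%, against 40.4% and 42.8%). CCGGAAG was in 15 (37.5%, against 9.22% and 15.1%). These counts include Psmc3ip and Psme3ip1, which are no subunits and each held all 3 motifs. Of the 27 subunits of both particles with a window, 14 held CCAAT, 15 TGANNNNGC and 10 CCGGAAG. A match is only a run of letters in the window. The parts before the start are shown for the members with the largest difference in each direction and for the ATPase with the largest, with matched letters in capitals. That of Psmg1 (chr11:48755041-48755290, minus strand) has 1 ETS match, that of Psmd10 (chrX:109453606-109453855, minus strand) has 3 NF-Y boxes, the last 2 on the other strand, and that of Psmc1 (chr6:125122247-125122496, plus strand) has an NF-Y box and an ETS match on the other strand.
Psmg1: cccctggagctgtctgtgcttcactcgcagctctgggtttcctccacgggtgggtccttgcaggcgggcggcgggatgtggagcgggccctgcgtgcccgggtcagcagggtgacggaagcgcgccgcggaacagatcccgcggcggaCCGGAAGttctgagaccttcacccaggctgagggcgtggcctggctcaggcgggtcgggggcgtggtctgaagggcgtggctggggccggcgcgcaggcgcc
Psmd10: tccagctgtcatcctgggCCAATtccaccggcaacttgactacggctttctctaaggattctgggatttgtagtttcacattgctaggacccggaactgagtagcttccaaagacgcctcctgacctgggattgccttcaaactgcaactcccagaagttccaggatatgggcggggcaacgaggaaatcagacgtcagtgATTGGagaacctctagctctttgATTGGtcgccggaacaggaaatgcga
Psmc1: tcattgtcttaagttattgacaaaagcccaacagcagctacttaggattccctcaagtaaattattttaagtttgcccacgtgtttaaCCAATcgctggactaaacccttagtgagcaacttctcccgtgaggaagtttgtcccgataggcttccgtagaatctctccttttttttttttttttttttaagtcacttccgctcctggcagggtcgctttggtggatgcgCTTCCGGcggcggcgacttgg

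The size of the lowering depended on how arrays were scaled. After quantile normalization the core median was -0.06, the regulatory median -0.22 and that of other genes in the same range of level 0.01, with 32 of 44 members negative and 10 (22.7%) without overlap below ES, against 11.7% of all genes and 14% of those in the same range. For the core this was 2 of 14 genes (14.3%), near the share in that range, and for the regulatory particle 6 of 17 (35.3%). When each array was scaled to a common trimmed mean, an alternative chosen after seeing the data, the medians were -0.08, -0.26 and -0.01. Then 1 core gene (7.14%) and 8 regulatory genes (47.1%) had no overlap below ES, against 10.2% of all genes and 15.4% of those in the same range. With arrays centred on their median the 3 list medians were -0.25, -0.42 and -0.18. There 26 members (59.1%) had no overlap below ES, against 15.6% of all genes and 24.7% of those in the same range. The share was 64.3% for the core and 64.7% for the regulatory particle. The regulatory median stayed below the core median in each of the 19 settings, but without ES replicate 3 they were nearly alike (-0.30 regulatory, -0.28 core).

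**Figure D4:**
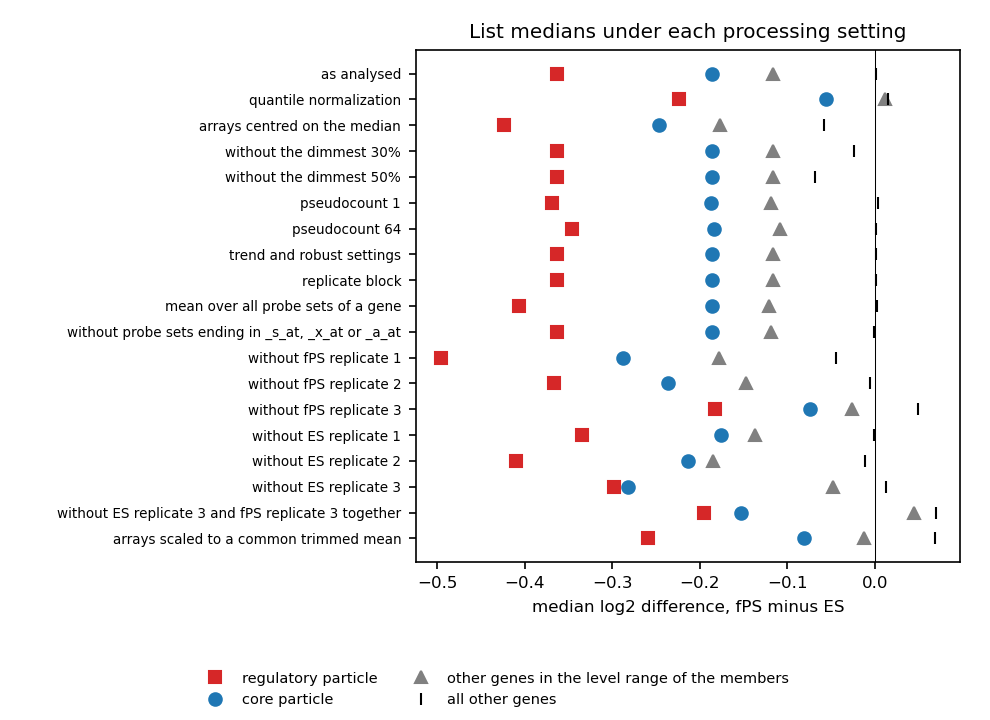
Median log2 difference (fPS minus ES) of the regulatory genes, the core genes and 2 lists of other genes under each processing setting. The regulatory median lies between -0.50 and -0.18 and the core median between -0.29 and -0.06, and both are left of the other genes in every setting.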

How the data were processed

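Total RNA of 3 fPS and 3 ES samples was read on Affymetrix rat arrays. What was deposited is intensity on a linear scale, 1 value for each probe set and array, judged by its range. How the authors summarised, background-corrected and scaled it was not stated in the labels. The table held 31099 probe sets, of which 57 controls were left out. Symbols came from the platform's annotation: 20826 probe sets had 1 symbol, 436 several and 9780 none. Values were analysed as log2(intensity + 16), with no further normalization or filter, by limma 3.58.1 in R 4.3.3 over 31042 probe sets with Benjamini-Hochberg adjustment. The number of arrays limits the precision. The fit was tested on simulated data. Figures used matplotlib 3.10.9 in Python 3.11.15.

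Named were, in each role, the gene with the brightest probe set, the largest rise and the largest fall, and every member at an unadjusted p under 0.05. Other members named by value, Nfe2l1 and Psmb8 were chosen after their values were seen. The members and lists were chosen with earlier results of these data known. Alternatives were other scalings, filters on dim probe sets, pseudocounts, moderation, probe set choices, a replicate block and arrays left out.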

Additional observations from a re-analysis of the deposited data

How the results depend on the processing

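No member passed an adjusted p of 0.05 under any of the 18 alternatives, and all 3 list medians stayed below 0: the core between -0.29 and -0.06, the regulatory particle between -0.50 and -0.18 and all members between -0.39 and -0.12. The pooled SD between arrays of a group of the core genes' median log2 level, 0.227, was larger than the size of their median difference. The same SD was 0.268 for the regulatory particle, smaller than the size of its difference (-0.363). For all members it was 0.256, about the size of theirs (-0.256). Members at an unadjusted p under 0.05, 6 as analysed, numbered 10 with arrays centred on the median (18.8% of all genes had such a p), 13 with a pseudocount of 64 (19.6%), 2 with a pseudocount of 1 (12.9%), 3 with the replicate block (17.0%), 2 when replicate 3 of both groups was dropped (16.4%), and 2 to 11 with 1 array left out. Genes called over the whole table, 122 as analysed, numbered 203 with arrays centred, 213 with the trimmed mean, 416 and 506 without the dimmest 30% and 50%, 358 with the trend and robust settings, 26 and 0 with pseudocounts of 64 and 1, 64 with the replicate block, 0 without replicate 3 of both groups, and 0 to 93 with 1 array left out. Nub1 was the 1 gene of the ubiquitin route to pass, without the dimmest 50% (adjusted p = 0.0444 by limma, range over settings 0.0444 to 0.320), and Tap1 passed without the dimmest 30% (adjusted p = 0.0412, range 0.0412 to 0.377). Of the named genes, 7 turned their sign somewhere, all with an adjusted p of 0.700 or more by limma as analysed: Psmc6 (0.0864 after quantile normalization, 0.0514 with the trimmed mean, 0.19 without replicate 3 of both groups, -0.22 to 0.19 with 1 array left out), Psmd3 (-0.000946 centred, -0.0698 to 0.26 with 1 left out), Psmg4 (-0.00415 centred, -0.15 without replicate 3 of both groups, -0.28 to 0.23 with 1 left out), Psmd11 (0.00342 as a mean over probe sets), Psmb10 (-0.21 without replicate 3 of both groups, -0.30 to 0.46 with 1 left out), Psmd2 (0.12 without replicate 3 of both groups, -0.41 to 0.0672 with 1 left out) and Psme4 (0.0370 without replicate 3 of both groups). The cause of these shifts was not tested. The replicate block ended no adjusted call of a member, since there was none. The deviations of same-numbered arrays from their group means correlated by 0.151, 0.020 and 0.075. Those of differently numbered arrays correlated by -0.145 to 0.054. Whether the numbers mark pairs was not tested, and the replicate block was kept as an alternative.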
